A study of Drosophila melanogaster with 6 samples.

Results

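Long noncoding RNAs that were expressed in the developing indirect flight muscle of Drosophila melanogaster are described here, with and without forced expression of the Hox transcription factor Antennapedia (Antp). They are the genes whose symbol begins with lncRNA: and whose counts, summed over the 6 libraries of the study, reached 1000, so they were selected on their summed counts. By this rule 66 of the 1933 lncRNA genes in the count table (3.41%) were members, whereas 1260 lncRNA genes had 0 counts in all 6 libraries and 607 had a count but fewer than 1000. The prefix lncRNA: is left out of the names below.

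Indirect flight muscles (IFMs), the fibrillar muscles that power the wings, were dissected at 72 hours after puparium formation (APF) from pupae raised at 25°C. UAS-Antp was expressed in 3 samples and UAS-GFPnls, a nuclear green fluorescent protein called UAS-GFP below, in 3 control samples. Both transgenes were driven by Act88F-Gal4, which carries the promoter of the flight muscle actin gene Act88F, so every sample carried the driver and no sample was without a transgene. Each sample pooled the IFMs of 6 to 8 pupae, and libraries were made from polyadenylated RNA, so lncRNAs without a poly(A) tail are not measured.

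Long noncoding RNAs are transcripts that resemble messenger RNAs, often spliced and polyadenylated, but are not known to encode a protein. Some act on chromatin or on the transcription of neighboring genes, others hold proteins in nuclear bodies, and for most no function is known. In flies the best-studied examples are roX1 and roX2, which carry the dosage compensation complex to the male X chromosome, and Hsromega, a heat-inducible nuclear RNA that assembles omega speckles with RNA-binding proteins of the hnRNP family.

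Total counts ran from 63217976 to 77781458 per library with UAS-Antp and from 47460809 to 64485309 with UAS-GFP. Antp itself had 716673, 1092524 and 517985 counts in the UAS-Antp libraries AxA_1, AxA_2 and AxA_3, against 70, 33 and 66 in the UAS-GFP libraries AxG_1, AxG_2 and AxG_3, as the labels say. All 10 fixed markers of flight muscle were detected in all 6 libraries. All 10 were called lower with UAS-Antp by the test described below, and 7 of 10 were called lower with scaling by library totals. The falls did not extend to all muscle genes. Of 58 tested genes of a wider sarcomere list, which includes these markers, 17 were called higher and 28 lower (28 and 15 by totals). Of 5 trachea markers, all detected in all 6 libraries, 4 were called lower and 1 higher (1 and 1 by totals), and their summed level was 168 to 245 CPM with UAS-Antp, against 661 to 710 CPM with UAS-GFP. Of 3 tested tendon and epidermis markers shot was called lower, with a log2 fold change of -1.37 (-0.06 by totals). Beside these counts, 16.3% of all genes tested were called higher and 19.3% lower (52.1% and 7.18% by totals). The part of these cells in the falls below was not tested. AxA_2 stood apart from the other libraries in low-level transcripts. There 10 of 13 testis markers and 9 of 9 ovary markers exceeded the floor of 3 counts, against 4 and 1 in AxA_1, 3 and 6 in AxA_3, and at most 1 and 3 in a UAS-GFP library, and 428 lncRNA genes exceeded it, against 255 in AxA_1, 348 in AxA_3 and 220 to 242 with UAS-GFP. The deposited design calls the samples independent replicates, while the methods of the study call them technical replicates of 1 biological sample, so the p-values below measure the spread between these libraries, which may be technical. Bulk RNA cannot tell fewer cells of a type from less RNA per cell.

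The members were spread over the genome and were mostly short genes. There were 20 on the X chromosome, 16 on 3R, 11 on 2L, 9 on 3L, 8 on 2R and 2 on chromosome 4. The X thus held 30.3% of the members, against 12.3% of all lncRNA genes and 17.1% of the other genes with 1000 or more counts. The exons of a member covered 201 to 21710 bases (median 1390), and 32 members had 1 exon. On their own strand 23 members shared exon bases with another gene. Of the other 43, 28 lay between protein-coding genes, 12 within the span of a coding gene with exons apart, and 3 antisense to coding exons. Reads in shared bases cannot be told from those of the other gene. Members nested in the exons of coding genes are described together, while others that share exon bases appear among the rises, the falls and the abundant members.

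The rule sums over both genotypes, so a member could enter through 1 genotype alone. The sum reached 1000 in each genotype for 23 members, with UAS-Antp only for 24, with UAS-GFP only for 8 and only over both for 11. The members just inside were CR33963, CR43685 and CR44922, with 1038, 1023 and 1017 counts. Just outside were CR44473, CR45361 and CR43241, with 948, 927 and 922 counts. Members took 0.708%, 0.931% and 0.612% of all counts in the UAS-Antp libraries, against 0.398%, 0.391% and 0.309% in the UAS-GFP libraries. These shares and the sums above are of unscaled counts. The TMM scaling used below had factors of 1.53 to 1.60 for the UAS-Antp libraries and 0.61 to 0.67 for the UAS-GFP libraries. With it the members' sum was 4615, 5810 and 3827 CPM with UAS-Antp, against 6432, 5800 and 5075 CPM with UAS-GFP. The 10 most abundant held 88.8% of the members' counts, and CR42862 alone held 48.9%.

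Levels below are counts per 1000000 (CPM) scaled by edgeR's TMM factors, given for AxA_1, AxA_2 and AxA_3 and then for AxG_1, AxG_2 and AxG_3. A difference was called at an adjusted p under 0.001 in edgeR's quasi-likelihood test, fitted on 9546 genes. With UAS-Antp, 9 members rose and 24 fell, so 33 of 66 (50%) were called, against 35.6% of all genes tested (16.3% higher, 19.3% lower) and 46.0% of tested genes with 1000 or more counts (20.9% higher, 25.1% lower). The members' share called in either direction was thus near that of tested genes with 1000 or more counts. That set includes the members and has no upper limit of abundance. The split by direction was less even than in that set, with 27.3% of called members higher by TMM. At an adjusted p under 0.05, 49 of the 66 passed, against 60.8% of all genes tested and 71.0% of those with 1000 or more counts. The 3 libraries of each genotype did not overlap for 49 members (74.2%), 18 above and 31 below, against 68.3% of all genes tested (37.6% above, 30.6% below) and 75.9% of those with 1000 or more counts (39.6% above, 36.3% below). The members' median log2 fold change of -0.28 became 1.03 with scaling by library totals, while that of all genes tested was 0.17 by TMM and 1.48 by totals, a shift of 1.32. Relative to all genes tested the members' median was lower by the same amount under both scalings (-0.45), and by totals 42 members were called, 29 higher and 13 lower, where 59.2% of all genes tested were, 52.1% higher and 7.18% lower. Called with the same sign by both scalings were 22 members, 9 higher and 13 lower. Without AxA_2, 8 were called higher and 22 lower.

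**Figure D1:**
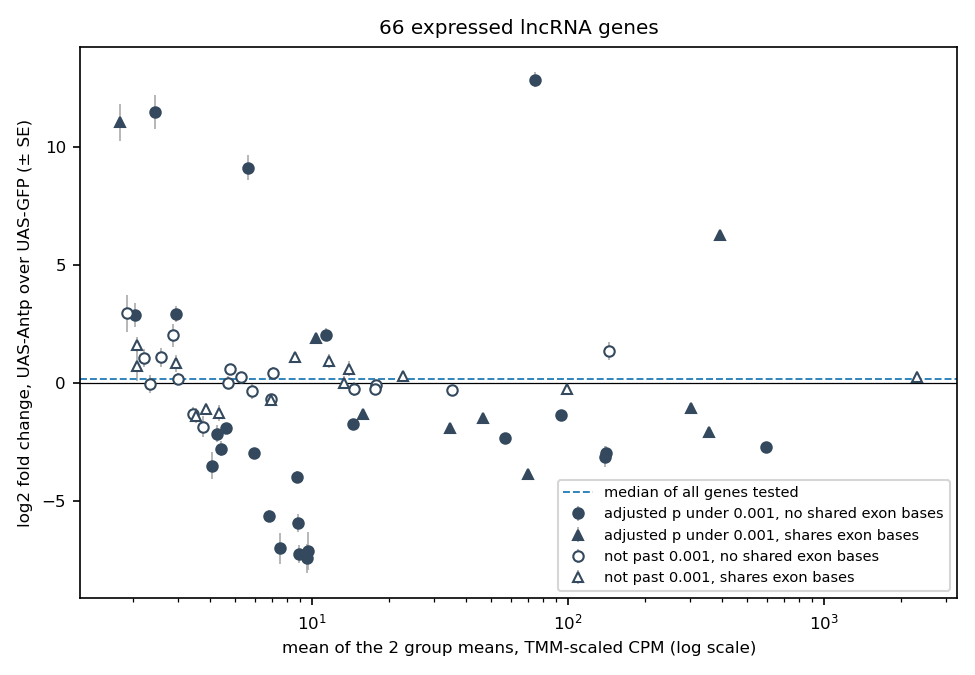
Log2 fold change (UAS-Antp relative to UAS-GFP, ± SE) against the mean level in TMM-scaled CPM for the 66 members. Filled symbols mark the 33 called at an adjusted p under 0.001, triangles those that share exon bases, and the dashed line the median of all genes tested (0.17); the called falls reach -7.41 and the called rises 12.85.

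The largest rises were in lncRNAs that were not detected in control muscle. Of the 66 members, 4 were at or under 3 counts in every UAS-GFP library, and no member was so in every UAS-Antp library. For these 4, folds are lower bounds, computed against the largest CPM that 3 counts stand for in a UAS-GFP library. Mates appear to be counted singly, so 3 counts can stand for fewer than 3 fragments, and with a floor of 6 counts, chosen after the values were seen, the bounds are 791-fold for CR44688, 59.5-fold for CR45502, 25.9-fold for CR44629 and 19.0-fold for CR46393. All 4 were detected in each UAS-Antp library, and within a gene the highest of these libraries was at most 1.65 times the lowest.

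CR44688, a 493-base gene of 1 exon (chromosome 3L, 22896127 to 22896619, plus strand, dm6), was among the 10 most abundant members. It had 149, 136 and 161 CPM with UAS-Antp, from 15887, 16942 and 16279 counts, against 0, 0 and 2 counts with UAS-GFP. All UAS-Antp libraries lay far above all UAS-GFP libraries, at least 1582-fold on average (log2 fold change 12.85 ± 0.32 SE, edgeR adjusted p = 1.52e-09, or 16.55 without AxG_3, which leaves the controls at 0). Per kilobase of exon it averaged 301 CPM with UAS-Antp, behind only CR43836 and CR42862 among members. The nearest coding gene, CG11131, begins 2125 bases downstream on the same strand, and it had 23293, 22561 and 20782 counts with UAS-Antp and 0 in each UAS-GFP library. The lncRNA and its neighbor were thus both detected with UAS-Antp only.

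CR45502 (chromosome X, 22958076 to 22958827, minus strand) also lay beside a coding gene that was at or under 3 counts in each UAS-GFP library, here upstream of it. It had 11.7, 13.6 and 8.21 CPM with UAS-Antp, against 2, 0 and 0 counts with UAS-GFP, at least 119-fold higher (log2 fold change 9.12 ± 0.53, edgeR adjusted p = 1.76e-07, or 12.81 without AxG_1, which leaves the controls at 0). CG40486, which ends 29 bases upstream on the same strand, had 90151, 98144 and 102921 counts with UAS-Antp and 0, 1 and 2 with UAS-GFP. With 29 bases between them, reads that run past the annotated end of CG40486 cannot be told from transcripts of CR45502.

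CR44629, the shortest member (201 bases, chromosome 2R, 20014495 to 20014695), rose without a neighbor that did so. It had 462, 579 and 569 counts with UAS-Antp and 0 in every UAS-GFP library, at least 51.8-fold higher (log2 fold change 11.48 ± 0.71, edgeR adjusted p = 2.22e-06). Its nearest coding gene, CG16898, 9492 bases away, had 0 counts in all 6 libraries, and the nearest that was tested, CG8654, lies 29600 bases away with a log2 fold change of 0.48. CR46393, with 378, 398 and 403 counts against 0 in every UAS-GFP library (at least 38.1-fold, log2 fold change 11.04 ± 0.79, edgeR adjusted p = 5.45e-06), is a different case. It shares 329 of its 498 exon bases with cry, the cryptochrome gene of the circadian clock, which had 4229, 4569 and 4090 counts with UAS-Antp and 15, 0 and 4 with UAS-GFP.

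CR43836 was the second most abundant member and spans 76084 bases of the X chromosome (8972908 to 9048991, minus strand) with 1613 bases of exon. It had 642, 927 and 769 CPM with UAS-Antp, against 11.2, 9.2 and 10.1 CPM with UAS-GFP. The groups were far apart and each was tight, with a 76.7-fold difference in means (log2 fold change 6.26 ± 0.18, edgeR adjusted p = 3.64e-09). It shares 473 exon bases with CG10962, and its count was 54.8% to 63.5% of that gene's count with UAS-Antp and 53.6% to 58.9% with UAS-GFP. CG10962 rose by a log2 fold change of 6.19 ± 0.14 (edgeR adjusted p = 1.21e-09), and CG15365, the next coding gene outside the span, by 6.46 ± 0.35 (adjusted p = 1.03e-07). On the opposite strand within the span, rdgA, a diacylglycerol kinase gene, rose by 1.93 ± 0.17 (edgeR adjusted p = 4.48e-06), and Nost fell by 0.74 on the log2 scale (edgeR adjusted p = 8.1e-05), though by totals its value was 0.58. CG12662, a gene on the same strand within the span, had 126, 56 and 51 counts with UAS-Antp and 0 in each UAS-GFP library (log2 fold change 8.71 ± 1.53, edgeR adjusted p = 0.0014, not called).

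**Figure D2:**
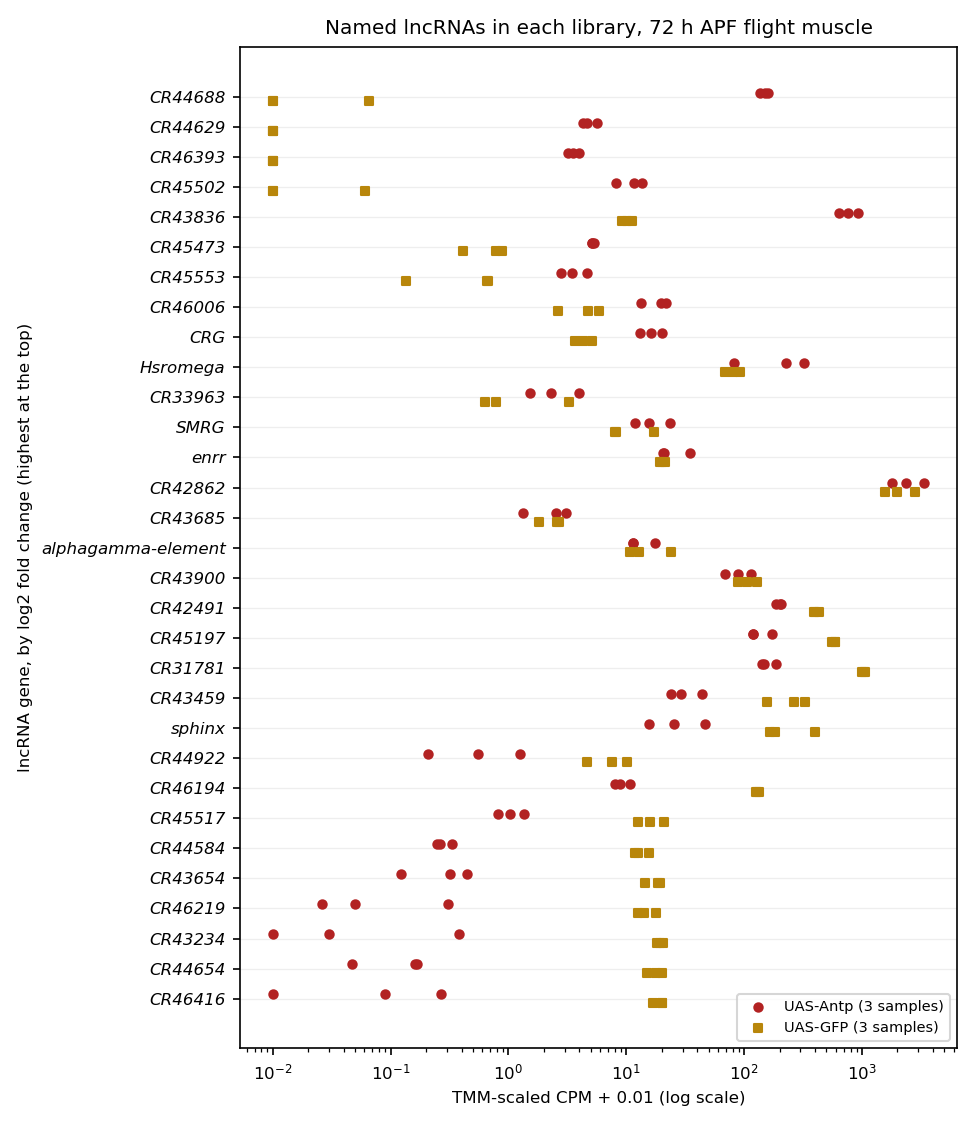
TMM-scaled CPM plus 0.01 (log axis) of the 31 named members in each library, ordered by log2 fold change with the highest at the top; red circles are the 3 UAS-Antp samples and gold squares the 3 UAS-GFP samples. The circles lie far to the right of the squares from CR44688 (log2 fold change 12.85) to CR43836 (6.26), mix with them from Hsromega to CR43900, and lie to the left at the bottom, down to CR46416 (-7.41).

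Other rises were smaller and from low levels. CR45473 (chromosome X, 140722 to 142197) had 5.09, 5.13 and 5.36 CPM with UAS-Antp, against 0.401, 0.876 and 0.769 CPM with UAS-GFP (log2 fold change 2.94 ± 0.33, edgeR adjusted p = 2.61e-05). Its exon lies partly antisense to tyn (362 bases), which had a log2 fold change of 0.90 ± 0.42 that was not called (edgeR adjusted p = 0.0866). CR45553 (chromosome 3R, 30530355 to 30532377) had 4.63, 3.43 and 2.76 CPM with UAS-Antp, against 0.651, 0.125 and 0.659 CPM with UAS-GFP. The groups did not overlap (log2 fold change 2.89 ± 0.52, edgeR adjusted p = 0.000811), but the call held in 1 of the 6 fits that left out a library, without AxG_2 (adjusted p = 0.00052), and was lost without AxG_1, AxG_3, AxA_1, AxA_2 or AxA_3 (adjusted p of 0.00186 to 0.00318). Its downstream neighbor at 230 bases on the same strand is tmod, tropomodulin, which caps the pointed ends of thin filaments. This gene had 240, 238 and 221 CPM with UAS-Antp, against 47.7, 50.4 and 46.2 CPM with UAS-GFP (log2 fold change 2.27 ± 0.10, edgeR adjusted p = 3.14e-08). CR46006, with 10235 exon bases, had 19.8, 21.9 and 13.3 CPM with UAS-Antp, against 5.81, 4.69 and 2.64 CPM with UAS-GFP (log2 fold change 2.06 ± 0.29, edgeR adjusted p = 0.000138), and its nearest coding gene lies 45368 bases away.

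The largest falls were of 7 lncRNAs that had 1.34 CPM or less in every UAS-Antp library, against 11.8 to 20.8 CPM in the UAS-GFP libraries. CR46416 (323 bases, chromosome 2L, 20477264 to 20477586, plus strand) lies wholly within CR43234 (20476711 to 20478920), which runs on the minus strand. CR46416 had 0, 10 and 26 counts with UAS-Antp, against 673, 642 and 726 with UAS-GFP (log2 fold change -7.41 ± 0.63, edgeR adjusted p = 2.89e-06), and its value was -8.73 without AxA_3 (adjusted p = 1.8e-06). CR43234 had 0, 46 and 2 counts with UAS-Antp, against 724, 651 and 700 with UAS-GFP (log2 fold change -7.10 ± 0.79, edgeR adjusted p = 2.39e-05), and its value was -10.69 without AxA_2 (adjusted p = 1.05e-07). Both were low in all 3 UAS-Antp libraries, and the library with the highest residual count differed between them. In AxA_3 and AxG_3 the enclosed gene had more counts than the enclosing one (26 against 2 and 726 against 700), which could not be so if reads had been counted without regard to strand. CG43233, a coding gene 3326 bases from CR43234, had 0 counts in each UAS-Antp library, against 22, 8 and 29 with UAS-GFP (log2 fold change -8.30 ± 1.43, edgeR adjusted p = 0.00126, not called).

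CR44654 (chromosome X, 13604359 to 13605651) had 4, 19 and 16 counts with UAS-Antp, against 808, 477 and 652 with UAS-GFP, 149-fold higher in UAS-GFP by mean CPM (log2 fold change -7.22 ± 0.38, edgeR adjusted p = 8.1e-08). CG11178 begins 30 bases downstream on the same strand and had a log2 fold change of -0.19 ± 0.26 (edgeR adjusted p = 0.548). The lncRNA thus fell while no change of its close neighbor was called. CR46219 (chromosome 3R, 30715125 to 30716848) had 32, 2 and 4 counts with UAS-Antp, against 560, 402 and 656 with UAS-GFP (log2 fold change -6.98 ± 0.66, edgeR adjusted p = 6.72e-06), and most of its residual counts were in AxA_1. Without that library the log2 fold change was -9.03 (edgeR adjusted p = 1.71e-07).

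CR43654 (chromosome 3R, 22777567 to 22781465, minus strand) lies inside the span of CG7029 on the other strand. It had 12, 54 and 31 counts with UAS-Antp, against 740, 613 and 528 with UAS-GFP (log2 fold change -5.91 ± 0.39, edgeR adjusted p = 4.2e-07). CG7029 fell by 1.25 on the log2 scale (edgeR adjusted p = 1.74e-06), a value that was 0.07 by totals. CR44584 (chromosome 2L, 11331889 to 11332736) had 27, 40 and 24 counts with UAS-Antp, against 626, 400 and 429 with UAS-GFP (log2 fold change -5.61 ± 0.24, edgeR adjusted p = 2.51e-08). The nearest tested coding gene to it, 26137 bases away, is salr, a spalt family transcription factor gene, with a log2 fold change of -0.82 by TMM and 0.49 by totals. CR45517 (chromosome X, 5428483 to 5429256) had 1.34, 1.02 and 0.801 CPM with UAS-Antp, against 15.9, 12.5 and 20.8 CPM with UAS-GFP, and no library of either genotype came near the other (log2 fold change -3.96 ± 0.27, edgeR adjusted p = 5.12e-07).

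CR46194 (chromosome 2R, 12169558 to 12171706, minus strand) had 8.84, 10.7 and 8.06 CPM with UAS-Antp, against 127, 129 and 135 CPM with UAS-GFP (log2 fold change -3.82 ± 0.14, edgeR adjusted p = 9.65e-09). It shares 362 of its 2149 exon bases with Oda, the ornithine decarboxylase antizyme gene, and its count was 1.05% to 1.41% of Oda's with UAS-Antp and 9.41% to 12.2% with UAS-GFP. The fall of the lncRNA was thus larger than that of Oda (log2 fold change -0.75 by TMM, 0.57 by totals). On its other strand 279 bases are antisense to SmD3, a spliceosomal protein gene, which had a log2 fold change of -1.03 by TMM and 0.27 by totals. The fall of CR46194 was -2.51 by totals.

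Among the abundant members, CR31781, CR43459 and sphinx fell, with every UAS-Antp library below every UAS-GFP library. CR31781 (chromosome 2L, 16869346 to 16878300) was the most abundant member in control muscle after CR42862. It had 186, 148 and 141 CPM with UAS-Antp, against 1035, 1004 and 1063 CPM with UAS-GFP (log2 fold change -2.71 ± 0.13, edgeR adjusted p = 4.66e-08), or 6.52-fold higher in UAS-GFP by mean CPM. No library of either genotype was near the other group. CR43459 (7596 bases, chromosome 3R, 10093761 to 10101356) ends 64 bases from the end of Fmr1, which encodes the fly homolog of the fragile X protein and lies on the other strand. It had 29.4, 44.3 and 24.1 CPM with UAS-Antp, against 326, 267 and 157 CPM with UAS-GFP (log2 fold change -2.94 ± 0.29, edgeR adjusted p = 1.01e-05). Fmr1 averaged 203 ± 29.3 CPM with UAS-Antp and 203 ± 14.8 CPM with UAS-GFP (SD, n = 3 each; log2 fold change -0.01 ± 0.13, or 1.31 by totals).

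The gene sphinx, on chromosome 4 (975168 to 977261, plus strand), is a young gene known in flies for its effect on courtship between males, and part of it derives from a retroposed copy of the ATP synthase subunit gene ATPsynF. It had 25.2, 15.6 and 46.7 CPM with UAS-Antp, against 182, 400 and 167 CPM with UAS-GFP. The groups did not overlap, but both were spread, with the highest library 3.0 times the lowest with UAS-Antp and 2.4 times with UAS-GFP (log2 fold change -3.10 ± 0.44, edgeR adjusted p = 0.000141). The call was lost without AxA_1 (adjusted p = 0.00111) and when libraries were scaled by totals (log2 fold change -1.81, adjusted p = 0.00278). ATPsynF, named here after its values were seen, averaged 1021 ± 96.8 CPM with UAS-Antp and 5536 ± 1335 CPM with UAS-GFP (SD, n = 3 each; log2 fold change -2.44 ± 0.17, edgeR adjusted p = 7.77e-07). Whether reads of ATPsynF were assigned to sphinx was not tested. On the opposite strand sphinx overlaps exons of fuss by 488 bases, and fuss had 36, 29 and 34 counts with UAS-Antp, against 4, 0 and 0 with UAS-GFP (log2 fold change 3.02 ± 1.20, edgeR adjusted p = 0.0508).

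The most abundant member, CR42862 (chromosome 3L, 224106 to 230964, plus strand), did not pass the test. It shares 246 of its 5485 exon bases with CG33229. It had 2353, 3391 and 1812 CPM with UAS-Antp, against 2818, 1983 and 1559 CPM with UAS-GFP, so the groups overlapped (log2 fold change 0.25 ± 0.25, edgeR adjusted p = 0.419). Without AxA_2 the value was -0.02, and by totals it was 1.57 with an adjusted p of 0.000183. CR43900, which shares 199 of its 737 exon bases with Cam (calmodulin), overlapped as well, with 114, 68.3 and 87.9 CPM with UAS-Antp against 106, 129 and 88.7 CPM with UAS-GFP (log2 fold change -0.26 ± 0.19, edgeR adjusted p = 0.266, or 1.04 and 0.00068 by totals). CR42862 and CR43836 together set much of the members' summed level. The sum was 4615, 5810 and 3827 CPM with UAS-Antp, against 6432, 5800 and 5075 CPM with UAS-GFP, and without these genes it was 1619, 1491 and 1246 CPM with UAS-Antp, against 3603, 3808 and 3506 CPM with UAS-GFP.

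Hsromega (chromosome 3R, 21296127 to 21317836, plus strand) had 24079, 40024 and 8356 counts with UAS-Antp, against 3198, 2935 and 2514 with UAS-GFP. In CPM these were 225, 321 and 82.7 with UAS-Antp, against 80.1, 91.8 and 69.1 with UAS-GFP. AxA_3 lay within the range of the controls, while AxA_1 and AxA_2 were above it. Over all 6 libraries the log2 fold change of 1.38 ± 0.38 was not called (edgeR adjusted p = 0.00937), and it was called without AxA_3 (log2 fold change 1.77, adjusted p = 2.76e-05), with no filter on low counts (1.38, adjusted p = 6.12e-05) and by totals (2.69, adjusted p = 9.11e-05). The value was not called with the DESeq2 test (1.32, adjusted p = 0.0159). Nor was it called with DESeq2 size factors, with the upper quartile or with any other library left out (edgeR adjusted p of 0.00797 to 0.0432). CG16791, which ends 464 bases from Hsromega on the other strand, rose by 1.78 ± 0.13 (edgeR adjusted p = 8.05e-07).

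Of 17 listed heat shock genes tested, 7 ordered the UAS-Antp libraries by CPM as Hsromega did, with AxA_2 highest and AxA_3 lowest, and the other 10 did not. The 7 were DnaJ-1, Hsp26, Hsp27, Hsp68, Hsp70Aa, Hsp70Ab and Hsp70Bb, and the near-identical Hsp70 copies among them are not separate observations. The share of all genes tested with this order was not counted, so the 7 of 17 stand without a baseline. Hsp68 had 28.1, 72.6 and 7.89 CPM with UAS-Antp, against 0.927, 0.626 and 0.632 CPM with UAS-GFP (log2 fold change 5.62 ± 0.76, edgeR adjusted p = 0.000102). Hsp70Aa had 150, 299 and 43.3 CPM with UAS-Antp, against 25.4, 12 and 56.5 CPM with UAS-GFP, though reads of the near-identical Hsp70 copies are uncertain in their assignment (log2 fold change 2.39 ± 0.67, edgeR adjusted p = 0.0105). Hsp26 had 16.2, 25.2 and 4.12 CPM with UAS-Antp, against 29.4, 36 and 38 CPM with UAS-GFP. Among genes with this order, the UAS-Antp values thus lay above the controls for Hsp68 and below them for Hsp26. Of the 17, 1 was called higher (Hsp68) and 2 lower (Hsp22 and Hsp83), where 16.3% of all genes tested were called higher and 19.3% lower. By totals 9 were higher and 1 lower, where 52.1% and 7.18% of all genes were. The part of a heat shock response in the level of Hsromega was not tested. The alphagamma-element, a transcribed repeat unit of a heat shock locus, overlapped between the groups, with 17.5, 11.4 and 11.5 CPM with UAS-Antp against 12.8, 23.9 and 10.7 CPM with UAS-GFP (log2 fold change -0.23 ± 0.29, edgeR adjusted p = 0.529, or 1.06 by totals).

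**Figure D3:**
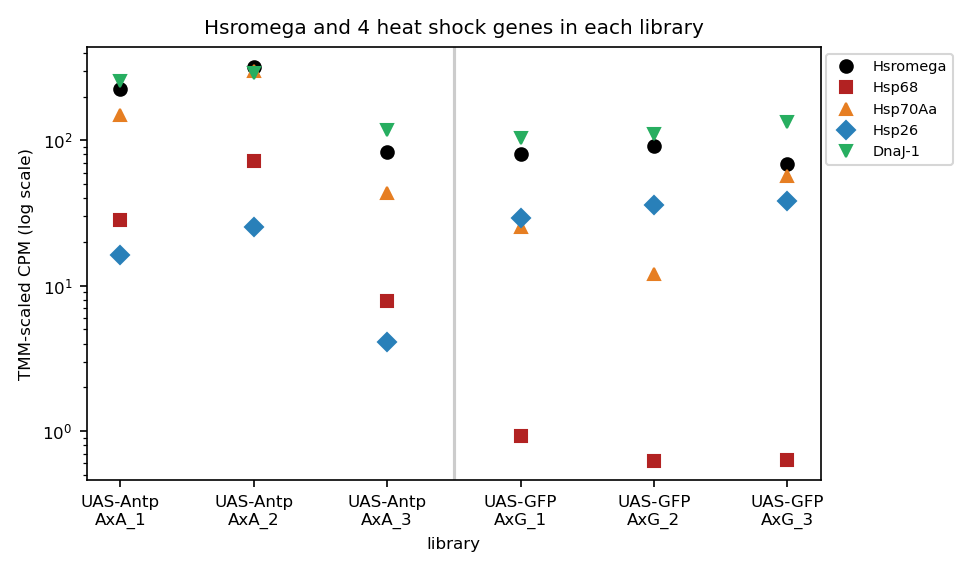
TMM-scaled CPM (log axis) of Hsromega and 4 heat shock genes in each library, UAS-Antp libraries on the left and UAS-GFP libraries on the right. Hsromega and these 4 genes were highest in AxA_2 and lowest in AxA_3 among the UAS-Antp libraries, with Hsromega at 321 and 82.7 CPM. The 4 genes were drawn from the 7 of 17 with this order, and the heat shock genes without it are not shown.

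Among the partners of omega speckles, 4 of 9 listed hnRNPs and associated proteins were called higher with UAS-Antp and 1 lower, where 16.3% of all genes tested were higher and 19.3% lower. By totals 8 were higher, where 52.1% of all genes were. The hnRNP genes Hrb87F and glo rose by 1.13 and 0.98 on the log2 scale, nonA by 1.64 and Pep by 0.96 (edgeR adjusted p of 1.19e-05, 4.14e-05, 2.84e-06 and 9.59e-06). Hrb27C was the called fall, with a log2 fold change of -0.95 (edgeR adjusted p = 0.000249).

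Members nested in the exons of coding genes followed those genes. For 10 members, 90% or more of the exon bases lay in the exons of 1 coding gene on the same strand, and for 7 of them all did. The count of such a member was 12.8% to 99.3% of its gene's count. CR44097, for example, lies wholly within CG6000 and had 1523, 1814 and 1503 counts with UAS-Antp, against 1992, 1717 and 2219 with UAS-GFP, which is 98.4% to 99.3% of the count of CG6000. Reads in shared bases thus appear to have counted for both genes, and the value of a nested member is in large part that of its gene. Over the 14 pairs with 50% or more of the member's bases shared, the log2 fold changes of member and gene had Pearson's r of 0.99 and the same sign in all 14, and the points share reads.

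CR45197 lies within sgg, which encodes the kinase GSK-3. It had 173, 119 and 120 CPM with UAS-Antp, against 554, 592 and 586 CPM with UAS-GFP (log2 fold change -2.07 ± 0.15, edgeR adjusted p = 1.11e-06), and sgg had a log2 fold change of -2.29 ± 0.13. CR42491 shares 377 of 747 bases with RpL22, a gene of the large ribosomal subunit. It had 201, 205 and 185 CPM with UAS-Antp, against 392, 403 and 430 CPM with UAS-GFP (log2 fold change -1.05 ± 0.10, edgeR adjusted p = 6.79e-06), but 0.26 by totals. The groups were apart by TMM, and the totals turned the direction round. The gene enrr lies within elav, the neuronal RNA-binding protein gene, and had 34.9, 21.0 and 20.3 CPM with UAS-Antp, against 19.4, 21.2 and 20.1 CPM with UAS-GFP (log2 fold change 0.33 ± 0.20, edgeR adjusted p = 0.19, or 1.63 and 2.71e-05 by totals). Of 5 neuron markers, elav included, 0 were called by edgeR or DESeq2, with 2 at an unadjusted p under 0.05 and 3 called higher by totals, and their summed level was 47.9 to 76.7 CPM with UAS-Antp and 48.1 to 55.5 CPM with UAS-GFP. SMRG lies within Tis11, a regulator of messenger RNA decay, and had 23.3, 15.5 and 11.9 CPM with UAS-Antp, against 17.1, 8.07 and 8.11 CPM with UAS-GFP (log2 fold change 0.61 ± 0.32, edgeR adjusted p = 0.133, or 1.92 and 0.000227 by totals).

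CRG, named as the CASK regulatory gene, lies wholly within exons of CASK, a membrane-associated guanylate kinase gene (chromosome 3R, 21783540 to 21786208, minus strand). It had 19.9, 16.2 and 13.1 CPM with UAS-Antp, against 3.63, 5.13 and 4.29 CPM with UAS-GFP (log2 fold change 1.92 ± 0.21, edgeR adjusted p = 2e-05). CASK had 51.3, 46.4 and 40.8 CPM with UAS-Antp, against 20.2, 22.8 and 17.4 CPM with UAS-GFP (log2 fold change 1.20 ± 0.14, edgeR adjusted p = 3.41e-05). The count of CRG was 38.8%, 34.9% and 32.0% of that of CASK with UAS-Antp, against 17.9%, 22.5% and 24.6% with UAS-GFP. The groups did not overlap in this share, so reads in the bases of CRG made up a larger part of the reads of CASK with UAS-Antp, and a two-sided exact permutation test of 3 against 3 cannot give a p below 0.1. Of the 10 nested members, CR45197 was the other whose share did not overlap, at 42.3%, 39.8% and 36.9% of sgg with UAS-Antp, against 32.6%, 36.5% and 34.2% with UAS-GFP. Whether such a shift comes from the lncRNA or from the isoforms of the coding gene cannot be told apart with these counts.

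**Figure D4:**
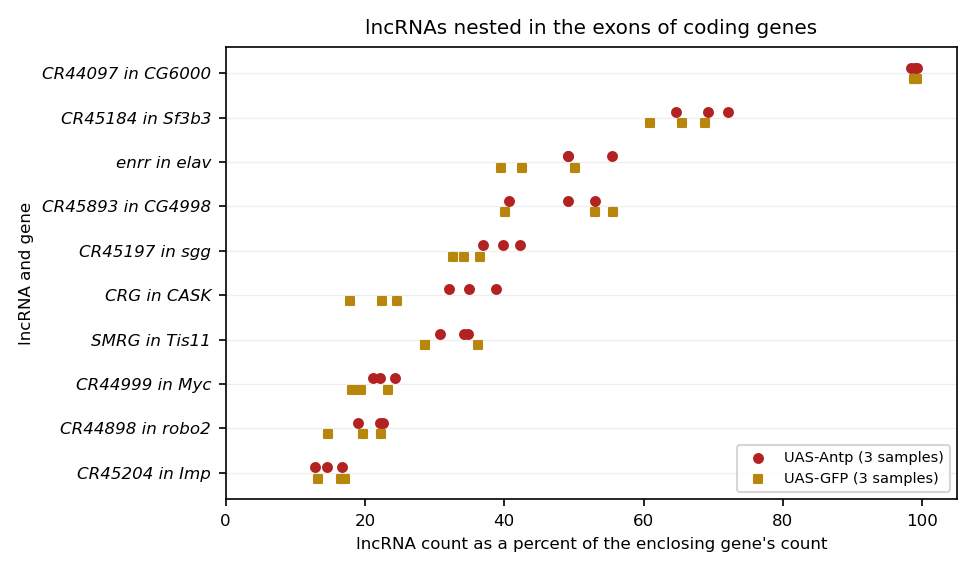
Count of each of the 10 nested members as a percent of the count of the coding gene that holds its exons, with the 3 UAS-Antp samples as red circles above the 3 UAS-GFP samples as gold squares. The groups are apart for CRG (32.0% to 38.8% with UAS-Antp, 17.9% to 24.6% with UAS-GFP) and for CR45197, and overlap for the other 8.

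Members that share no exon bases were compared with the nearest tested coding gene. Over 43 such pairs the log2 fold changes had Pearson's r of 0.65 and Spearman's rank coefficient of 0.49, with the same sign in 31 (72.1%). Over 9059 pairs of tested coding genes and their nearest tested coding gene, r was 0.18, the rank coefficient was 0.10 and 54.5% had the same sign. The members' value rests in part on the genes that were undetected in controls. Without the members at or under 3 counts in every UAS-GFP library, 40 pairs remained, with both coefficients at 0.41 and the same sign in 28. These 40 pairs still held CR43234 and CR46416, which had few counts with UAS-Antp. Both were paired with CG43233, whose log2 fold change of -8.30 was not called. Members were selected on summed counts, which either genotype could supply alone, and the coding pairs were not so selected. The coefficients of members and coding pairs are thus not like for like. Pairs also share libraries and some share a neighbor (CR43234 and CR46416), so these values are a description. Whether members follow their neighbors more closely than coding genes do was not tested. Not all members followed their neighbor: CR44417, with 25.2, 16.8 and 14.6 CPM with UAS-Antp against 79.3, 97.6 and 109 CPM with UAS-GFP (log2 fold change -2.33 ± 0.21, edgeR adjusted p = 4.29e-06), has Elk as its nearest tested coding gene outside its host, and that gene had a log2 fold change of 7.80. CR44417 and Elk were chosen for mention after their values were seen.

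**Figure D5:**
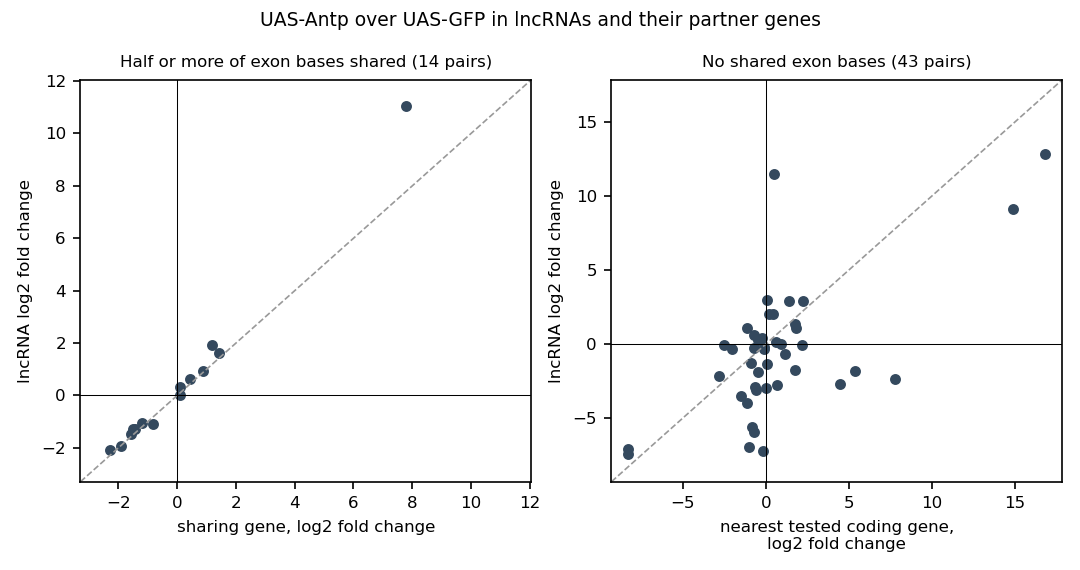
Log2 fold change of members, with UAS-Antp relative to UAS-GFP, against that of the gene sharing 50% or more of their exon bases (left, 14 pairs) and of the nearest tested coding gene where no exon bases are shared (right, 43 pairs); dashed lines mark equal values. The pairs follow the line on the left (r of 0.99) and scatter on the right (r of 0.65).

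By position, all 5 members antisense to coding exons were called (1 higher, 4 lower), against 17 of 28 between coding genes (5 and 12), 5 of 15 within the span of a coding gene (1 and 4) and 6 of 18 that share exon bases only (2 and 4), where 46.0% of tested genes with 1000 or more counts were called. By totals CR46194 and CR45473 were the only ones of the 5 called (edgeR adjusted p of 7.16e-08 and 8.17e-07). The others had an adjusted p of 0.00165 to 0.0032 by totals, so the 5 calls depend on the scaling. Only 3 of the 5 share no exon bases on their own strand. CR44097 is antisense to Hsp68 by 13 bases and lies wholly within CG6000, and CR46194 shares exon bases with Oda. One further antisense member, CR44691, had 1.0, 1.12 and 1.26 CPM with UAS-Antp, against 7.31, 11.1 and 4.78 CPM with UAS-GFP (log2 fold change -2.77 ± 0.32, edgeR adjusted p = 3.23e-05, or -1.48 and 0.0032 by totals). Its partner CG6398 had 77.4, 94.1 and 71.2 CPM with UAS-Antp, against 453, 533 and 561 CPM with UAS-GFP (log2 fold change -2.67 ± 0.14, edgeR adjusted p = 8.58e-08). Both strands were thus lower in every UAS-Antp library than in any UAS-GFP library.

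The 35 members not named so far by rank, name or threshold had log2 fold changes of -2.93 to 2.96. Of these, 10 were called lower (-2.93 to -1.28) and 0 higher by edgeR, while 9 were higher at an unadjusted p under 0.05 and 3 were called higher by DESeq2, and 8 of the 10 were not called with the same sign by totals. The 0 was fixed by the naming rule, which had taken all 9 called rises, 8 by rank and CRG by name. The rule had also taken the 8 largest called falls. These counts thus cannot be set against the 16.3% higher and 19.3% lower of all genes tested. CR44218, in the span of the chromatin remodeler gene kis on the other strand, had a high value that was not called and that moved with the library left out. It had 323, 427 and 374 counts with UAS-Antp, against 14, 0 and 34 with UAS-GFP (log2 fold change 2.96 ± 0.78, edgeR adjusted p = 0.00804), and its groups did not overlap. The value was 4.15 without AxG_3 and 2.37 without AxG_2, and it was called in no fit that left out a library (adjusted p of 0.00189 to 0.0307). CR45938 lies in the span of ftz-f1, a nuclear receptor gene of the ecdysone response, on the same strand, so strand does not separate their reads. It had 501, 864 and 226 counts with UAS-Antp, against 73, 24 and 28 with UAS-GFP (log2 fold change 2.04 ± 0.49, edgeR adjusted p = 0.00456). The gene ftz-f1 itself rose by 1.60 ± 0.22 (edgeR adjusted p = 0.000124). CR44754 had the largest called fall of these, with 125, 184 and 150 counts with UAS-Antp, against 374, 377 and 378 with UAS-GFP (log2 fold change -2.93 ± 0.21, edgeR adjusted p = 7.15e-07). CR44691, CR44218, CR45938 and CR44754 were chosen for mention after their values were seen.

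The members differed in how far the libraries of 1 genotype agreed. The ratio of the highest to the lowest CPM had a median of 1.50 over members with UAS-Antp and 1.41 with UAS-GFP, and it exceeded 3 for 7 members with UAS-Antp and 3 with UAS-GFP among those with a value above 0 in each library. The 3 members just inside the threshold differed in their calls. CR44922 had 133, 67 and 20 counts with UAS-Antp, against 304, 323 and 170 with UAS-GFP (log2 fold change -3.49 ± 0.57, edgeR adjusted p = 0.000402), and its call was lost without AxG_1, AxG_2 or AxA_2 (adjusted p of 0.00147, 0.00167 and 0.00228) and by totals, while without AxA_1 its value was -4.32 (adjusted p = 8.01e-05). CR33963 had 425, 283 and 153 counts with UAS-Antp, against 129, 20 and 28 with UAS-GFP (log2 fold change 0.73 ± 0.62, edgeR adjusted p = 0.332), and the value ran from 0.28 without AxA_1 to 1.87 without AxG_1 (adjusted p of 0.74 and 0.0133). CR43685 had 142, 316 and 309 counts with UAS-Antp, against 108, 82 and 66 with UAS-GFP (log2 fold change -0.03 ± 0.37, edgeR adjusted p = 0.946). Of the 33 called members, 29 were called in all 6 fits that left out a library, the others being sphinx, CR45553, CR44922 and CR45359.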

How the data were processed

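RNA-seq of 72-hour APF IFMs was analysed, with 3 UAS-Antp and 3 UAS-GFP samples. The authors deposited a table of counts, without normalization, for 17611 genes of FlyBase release 6.42 on dm6 (tools per the labels: bcl2fastq, Subread, featureCounts and DESeq2 1.34). Count columns name the genotype but not which labelled sample, so the numbers in AxA_1 to AxA_3 only name libraries, and 0 columns were left unmapped. The authors' comparison table gave symbols only, and its fold changes and p-values were not used. In each library 75% to 81% of the genes with 5 to 50 counts had even counts, so mates appear to be counted singly.

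Genes kept by filterByExpr (9546, all 66 members included) were scaled by TMM and tested with edgeR 4.0.16 (glmQLFit, glmQLFTest; R 4.3.3), with Benjamini-Hochberg adjustment over the 9546 genes. The SE is the log2 fold change over the square root of F. The floor of 3 counts covers counting error only, and with mates counted singly it stands for fewer than 3 fragments. Positions came from the deposited table and from Ensembl 115 for gene types. On simulated data, 69 of 98 4-fold and 84 of 98 8-fold changes were recovered, and 1 of 9162 unchanged genes was called. There 200 genes were changed, up and down in equal number. In the real data 35.6% of genes tested were called, and the median shifted by 1.32 between scalings. The simulation held no such shift, so it cannot speak to calls under it. The members and lists were chosen with earlier results of these data known. The members named were those with a name other than a CR number, the 10 most abundant, the 8 largest rises and 8 largest falls among called members without overlap, those antisense to sarcomere or Hox genes (0 found) and the 3 on either side of the threshold. Alternatives were DESeq2 1.42.0 (test and size factors), upper quartile, library totals, no filter, other thresholds and leaving out each library. No sequence was used here.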

Additional observations from a re-analysis of the deposited data

How the results depend on the processing

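The counts of called members (33 of 66, 9 higher and 24 lower with UAS-Antp) ran from 30 to 32 (8 to 9 higher, 22 to 23 lower) when 1 library was left out, and were 24 of 43 (6 and 18) without members that share exon bases, 33 with DESeq2 size factors, 34 with the upper quartile and 41 with the DESeq2 test. Scaling by library totals gave 29 higher and 13 lower. Without a filter on low counts 14 were higher, at an adjusted p under 0.05 18 were higher, and a summed count of 3000 gave 17 called of 30 (5 higher, 12 lower), a smaller list by construction. The members' median log2 fold change was 1.03 by totals, and -0.46 to -0.14 leaving out 1 library. The signs of these named members changed: by totals, alphagamma-element (1.06), CR42491 (0.26), CR43900 (1.04) and CR43685 (1.29); with the upper quartile, CR43685 (0.01); leaving out 1 library, alphagamma-element (-0.46 to 0.16), CR42862 (-0.02 to 0.50) and CR43685 (-0.29 to 0.24). Of all 66 members, 13 changed sign by totals, 2 of them called falls (CR42491 and CR44898). The cause of these changes was not tested. No paired analysis was possible because the labels number the UAS-Antp and UAS-GFP samples without a shared number.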

Other observations

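Several well-known lncRNAs stayed below 1000 counts. The dosage compensation RNA roX1 had 18, 141 and 15 counts with UAS-Antp, against 7, 0 and 2 with UAS-GFP, and roX2 had 8 counts, all in AxA_2. The let-7 host RNA let7C had 0, 32 and 22 counts with UAS-Antp, against 0, 4 and 0 with UAS-GFP. Of the bithorax RNAs, iab8 had 26 counts, all in AxA_2, and bxd and iab4 had 0 in all 6 libraries. Most counts of roX1, roX2 and iab8 were thus in AxA_2, the library with the most testis and ovary markers above the floor, and the part of other tissue in them was not tested.

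Of all genes tested, 16.3% were called higher and 19.3% lower (52.1% and 7.18% by totals), beside which the following lists stand. Of the 9 dosage compensation genes listed, 2 were called higher with UAS-Antp and 1 lower (8 and 0 by totals): msl-3 and Top2 had log2 fold changes of 1.12 and 3.61, and Unr -0.94. Of the 9 core proteins of small nucleolar ribonucleoproteins, 0 were called higher and 3 lower by edgeR (0 and 4 by DESeq2, 0 and 1 by totals, 0 and 6 at an unadjusted p under 0.05), Fib with a log2 fold change of -2.23, nop5 with -1.74 and Nopp140 with -1.05. Of 17 genes of the RNA exosome and of nonsense-mediated decay, 2 were called higher and 2 lower (9 and 0 by totals).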
